A study of Mus musculus with 6 samples.

Results

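The 7 genes described here are Oxct1, Col25a1, Zfp277, Lekr1, Fam124a, Rcn1 and Sel1l, out of 21887 protein-coding mouse genes in the annotation used. Each is the nearest protein-coding gene to 1 region with a strong peak of estrogen receptor alpha (ERα) in every estradiol library and no peak in any vehicle library. They were chosen by the measured peaks themselves, from the high-ranked of such estradiol-only regions, so the values of these regions are given as a description without a test. No cutoff for the rank was given, and the 15 highest are used here because they hold all 7 under the ranking described further on. Every peak that lay inside one of the genes, or within 500 kb of it with that gene as the nearest, was then collected in both groups. This gave 74 peaks in 39 merged regions, of 39374 merged regions in all.

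The peaks come from CUT&RUN, in which an antibody directs a nuclease to the chromatin around a bound protein and the freed fragments are sequenced. Nuclei were from limbic brain tissue of adult male C57/BL6 mice. Castration at 10 to 12 weeks of age removed the hormones of the gonads in both groups, and 3 weeks later the mice were injected under the skin. One group of 3 libraries received 5 µg of estradiol benzoate, an ester that releases estradiol, and the other group of 3 received corn oil alone, with nuclei taken 4 hours after injection. The labels do not say if animals were pooled or if each library is a separate animal, so the spread between libraries may be technical. Replicate 3 of both groups is labelled more briefly than replicates 1 and 2, with its treatment in the title alone, no strain, and brain as the tissue. The vehicle lists held 5421 to 20541 peaks and the estradiol lists 11082 to 17558, and the median peak in every list rested on an estimated 6 fragments at its summit. Peaks do not measure RNA, so tissue markers could be looked at only as start sites with a peak. Start sites were known for 7 of the 12 listed neuron markers and 11 of the 12 liver markers. A region of any list lay within 1000 bp of 6 of these 7 and of 1 of these 11. The share of all genes with a start site in the table was 41.6%. A region of all 6 lists lay there for only 1 neuron marker and 1 liver marker, beside 12.2% of all genes.

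ERα is a receptor for estradiol that binds DNA. In many tissues its hormone-dependent sites lie mainly in enhancers away from gene starts, where it recruits coactivators. In the limbic brain it is known for its part in sexual and social behaviour, physical activity and energy balance. The 7 genes belong to no common pathway. Oxct1 encodes the mitochondrial enzyme that commits ketone bodies to use as fuel outside the liver, and Sel1l encodes the adaptor of the Hrd1 ubiquitin ligase in the degradation of misfolded proteins of the endoplasmic reticulum (ER). Rcn1 encodes reticulocalbin 1, a calcium-binding protein of the ER lumen, and Col25a1 a transmembrane collagen of neurons whose shed part is found in amyloid plaques. Zfp277 encodes a zinc finger protein reported to bind the Polycomb protein Bmi1. Lekr1, a coiled-coil protein gene, is known from human association studies of birth weight, and Fam124a is little characterised.

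Start sites were known for 6 of the 7 genes, from a RefSeq promoter table of build GRCm38.p6 (the coordinates of mm10) that gives 250 bases before and 50 after each start. In 4 of these promoters at least 1 list held a peak whose bases shared by all lists lay in the window, and these 4 are shown because the distant estradiol-only regions can be set beside them. They run 5′ to 3′ along the gene, and capitals mark the bases that lie in every peak listed there.
Sel1l, chr12:91849108-91849407, minus strand: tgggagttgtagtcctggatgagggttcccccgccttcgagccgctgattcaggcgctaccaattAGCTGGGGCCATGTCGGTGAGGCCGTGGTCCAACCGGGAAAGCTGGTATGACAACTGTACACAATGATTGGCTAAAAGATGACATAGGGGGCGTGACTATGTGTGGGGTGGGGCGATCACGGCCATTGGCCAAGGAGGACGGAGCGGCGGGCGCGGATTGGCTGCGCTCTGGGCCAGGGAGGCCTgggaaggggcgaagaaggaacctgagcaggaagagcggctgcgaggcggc
Zfp277, chr12:40445741-40446040, minus strand: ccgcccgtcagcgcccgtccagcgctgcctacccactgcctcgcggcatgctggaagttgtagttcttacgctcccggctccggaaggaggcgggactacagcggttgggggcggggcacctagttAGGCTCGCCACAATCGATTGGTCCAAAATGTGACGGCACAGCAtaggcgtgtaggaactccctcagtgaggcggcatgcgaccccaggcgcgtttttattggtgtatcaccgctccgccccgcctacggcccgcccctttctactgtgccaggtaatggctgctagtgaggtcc
Col25a1, chr3:130180595-130180894, plus strand: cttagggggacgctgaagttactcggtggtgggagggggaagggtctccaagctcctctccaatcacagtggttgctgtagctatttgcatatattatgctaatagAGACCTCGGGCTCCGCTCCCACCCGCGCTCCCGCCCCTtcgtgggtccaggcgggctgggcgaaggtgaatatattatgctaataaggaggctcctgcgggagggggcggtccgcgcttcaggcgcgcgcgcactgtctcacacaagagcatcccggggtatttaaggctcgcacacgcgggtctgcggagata
Lekr1, chr3:65665978-65666277, plus strand: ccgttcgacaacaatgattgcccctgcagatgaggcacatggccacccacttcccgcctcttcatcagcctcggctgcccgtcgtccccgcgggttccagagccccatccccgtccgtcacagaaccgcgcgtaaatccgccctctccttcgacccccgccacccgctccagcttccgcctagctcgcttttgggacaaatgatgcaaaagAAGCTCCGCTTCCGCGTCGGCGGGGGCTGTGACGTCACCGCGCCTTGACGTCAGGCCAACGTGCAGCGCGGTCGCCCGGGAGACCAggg
The capitals stand for 6 lists at Sel1l and Zfp277, for vehicle replicates 1 and 3 and estradiol replicate 1 at Col25a1, and for vehicle replicate 3 alone at Lekr1. At Oxct1 the merged region of 4 lists began at position 42 after the start, and the bases shared by its peaks lie outside the promoter window.

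All 7 estradiol-only regions lay away from gene ends. Of these, 3 were within genes, at Oxct1, Zfp277 and Lekr1, and the other 4 were between genes, at distances of 11.7 kb (Col25a1), 17.1 kb (Rcn1), 28.1 kb (Fam124a) and 303 kb (Sel1l). Of the other 283 estradiol-only regions, 40 (14.1%) lay within 1000 bp of an end of a protein-coding gene, and 0 of the 8 others among the 15 highest-ranked did. Estradiol-only regions made up 290 of 39374 merged regions (0.737%) and were assigned to 281 genes (1.28% of all protein-coding genes), 267 of them (1.22%) with a single such region, as here. How the genes had been ranked when they were chosen was not stated. The ranking measure used here was picked after the data were seen, out of 20 that were tried. It was among those that placed all 7 genes in the 15 highest. By this measure, the mean over the estradiol lists of the percentile of −log10 q within a list, the ranks among the 290 were 3 (Fam124a), 5 (Col25a1), 9 (Zfp277), 10 (Lekr1), 12 (Oxct1), 13 (Sel1l) and 14 (Rcn1). The lowest of them had a mean percentile of 91.2, the region of Pdzrn4 at rank 15 had 90.6, and that of Phf3 at rank 16, just outside the 15, had 90.2. Only 4 of the 20 measures placed all 7 genes among the 15 highest, and the fewest placed there was 4. Fam124a (ranks 1 to 5) and Col25a1 (3 to 12) were among the 15 by every measure tried, while Oxct1 ranged from 9 to 29 and Rcn1 from 5 to 25.

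The highest-ranked of the 7 regions lay upstream of Fam124a (chromosome 14, 62527401 to 62527655), 28.2 kb before the start of the gene, which spans 62555737 to 62608486. Its summit held an estimated 27, 20 and 33 fragments in estradiol replicates 1, 2 and 3, with fold enrichments over background of 18.0, 14.1 and 20.0 and −log10 q of 31.1, 21.5 and 39.0. All 3 values were far above the median summit of their lists. The nearest protein-coding gene on the other side, Gm4131, was 46.2 kb away. The locus held a single further region, 12.5 kb nearer to the gene, with 6 fragments in estradiol replicate 1 and 5 in estradiol replicate 3. No vehicle list had any peak assigned to Fam124a, and no list had one within 1000 bp of its start or end.

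The Col25a1 region (chromosome 3, 130168597 to 130168685) lay 12.2 kb upstream of the start site given in the table. It was 107 kb from the neighbour on the other side, the COPII coat gene Sec24b. Its summit held 18, 19 and 21 fragments in estradiol replicates 1, 2 and 3, the most even values of the 7 regions. The peaks were 88, 89 and 87 bp wide, and their first and last bases agreed within 2 and 1 bp. Only 1 of the other 283 estradiol-only regions (0.353%) had both edges within 2 bp in the 3 lists, where the larger of the edge differences had a median of 70.0 bp. At 89 bp it was also the narrowest of the 7, which had a median width of 243 bp. The 8 others among the 15 highest-ranked had a median width of 228.5 bp, and all 283 others 143 bp.

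The Zfp277 region (chromosome 12, 40399174 to 40399330) lay inside the gene, 46.5 kb downstream of its start. Its summit held 14, 13 and 29 fragments in estradiol replicates 1, 2 and 3, so that replicate 3 was more than 2 times replicate 2. Within the same gene, vehicle replicate 3 alone had 2 other peaks, with 4 fragments 7.8 kb to one side and with 9 fragments 15.9 kb to the other. The gene on the far side of the start site, Dock4, which encodes an activator of Rac, began 46.6 kb from the region.

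The Lekr1 region (chromosome 3, 65751410 to 65751614) lay 85.3 kb downstream of the start site given in the table, about midway between the neighbours Tiparp (196 kb) and Ccnl1 (194 kb). Its summit held 11, 19 and 17 fragments in estradiol replicates 1, 2 and 3. Lekr1 had the most other regions with peaks in estradiol lists only, 5 of its 8, where 33.1% of all merged regions are of this kind. Some of the 5 came from a single list. Of these 5, 1 lay 13.7 kb from the main region, with 5 and 10 fragments in estradiol replicates 1 and 3. Another lay 53.1 kb away on the other side, with 5 and 9 fragments in estradiol replicates 2 and 3, beside a further peak of 5 fragments in 1 estradiol list at 53.4 kb. The other 3 regions of the locus, among them the start site, had a peak of vehicle replicate 3 alone, with 5 to 6 fragments. At 112 kb a vehicle region (65863457 to 65863494) and an estradiol region (65863428 to 65863455) with 6 fragments each were counted apart although a single base separates them.

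The Oxct1 region (chromosome 15, 4078093 to 4078335) lay inside the gene (4026428 to 4155344), 51.8 kb downstream of its start. Its summit held 12, 20 and 20 fragments in estradiol replicates 1, 2 and 3, and the 3 summits lay within 7 bp of each other. Beyond the other end of the gene were 2 single peaks of 4 fragments, the smallest number called in any list, from estradiol replicate 2 and from vehicle replicate 3.

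The Sel1l region (chromosome 12, 92152409 to 92152742) was the most distant from its gene, 303 kb upstream of the start. On the other side the nearest protein-coding gene, Gm40892, was 731 kb away, and the nearest annotated feature of any class was a pseudogene, Gm40598, at 8.09 kb. The summit held 10, 26 and 19 fragments in estradiol replicates 1, 2 and 3, and the peaks were 110, 280 and 312 bp wide. Replicate 1 was thus the lowest by more than 1.5 times. Among the 7 other regions of this locus that were not at the start site, 4 had a peak in 1 estradiol list and 3 a peak in 1 vehicle list, each with 4 to 7 fragments.

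The Rcn1 region (chromosome 2, 105416379 to 105416665) lay between Rcn1 and Pax6, a transcription factor gene of eye and forebrain development, whose span began 252 kb away. Its summit held 9, 25 and 30 fragments in estradiol replicates 1, 2 and 3, the widest ratio between libraries of the 7 regions (3.33). Estradiol replicate 2 had a second peak close by, at 105416002 to 105416062, with 13 fragments, more than replicate 1 held at the main region. The locus also held the only region of the 7 loci that was shared by 2 vehicle lists and no estradiol list. It lay 11.7 kb farther toward Pax6, with 5 fragments in vehicle replicate 2 and 7 in vehicle replicate 3. No list had a peak within the span of Rcn1 or within 1000 bp of its ends.

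**Figure D1:**
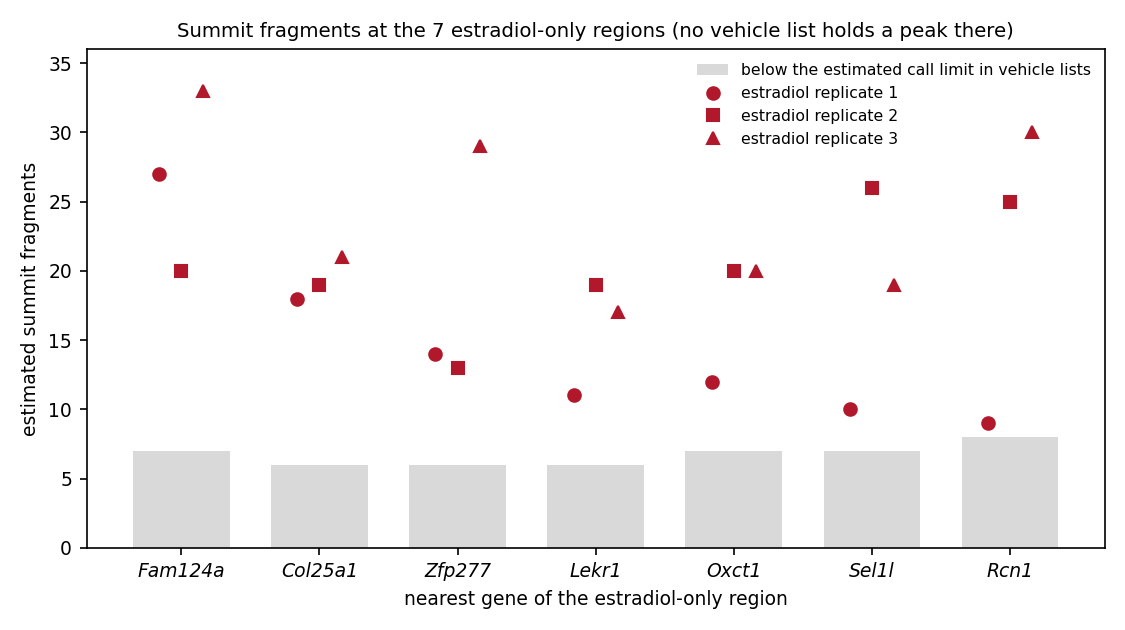
Estimated fragments at the summit (vertical axis) of the estradiol-only region of each gene (horizontal axis, in order of rank), 1 point per estradiol library. The points range from 9 at Rcn1 to 33 at Fam124a. The grey bars reach the highest estimated call limit of the vehicle lists at each gene, 6 to 8 fragments. These limits assume the highest background estimated at the site in the estradiol lists.

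Across the 7 regions the median summit was 12 fragments in estradiol replicate 1, 20 in replicate 2 and 21 in replicate 3. Replicate 1, the shortest of the estradiol lists, was the lowest library at 5 of the 7 genes and replicate 2 at the other 2 (Fam124a and Zfp277). The lack of a vehicle peak sets a limit and does not show that no fragment was there. With the highest background estimated at each site in the estradiol lists, a vehicle list would have held a peak from 5 to 6 fragments at Col25a1 and Lekr1, 6 at Zfp277, 6 to 7 at Sel1l, 7 at Oxct1 and Fam124a and 7 to 8 at Rcn1. With the genome-wide background of each vehicle list, 4 fragments would have been enough. Every estradiol summit was above these limits, from 9 against 8 at Rcn1 to 33 against 7 at Fam124a.

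The start sites were not used to choose the genes. A region of any list lay within 1000 bp of 5 of the 6, beside 41.6% of all genes with a start site in the table. All 5 held a peak of a vehicle list, at Lekr1 of vehicle replicate 3 alone with 5 fragments. At Sel1l the start site had a peak in all 6 lists, with 15, 29 and 52 fragments in vehicle replicates 1, 2 and 3 and 26, 29 and 33 in estradiol replicates 1, 2 and 3. The groups overlapped, and both the lowest and the highest value were from vehicle lists. At Zfp277 all 6 lists held a peak as well, with 7, 12 and 16 fragments in vehicle replicates 1, 2 and 3 and 18, 8 and 10 in the estradiol replicates, again with overlap. That region overlaps the spans of both Zfp277 and Dock4, so it cannot be given to either gene alone. A region of all 6 lists lay within 1000 bp of the start of 12.2% of the 17492 genes with a start site in the table, and of 2 of the 6 genes here.

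At the remaining start sites the peaks were small. Oxct1 had 8 fragments in vehicle replicates 2 and 3 and in estradiol replicate 1, and 4 in estradiol replicate 2. Col25a1 had 6 in each of its 3 lists, and Lekr1 had 5 in vehicle replicate 3. Where an estradiol list held both peaks, the distant region was the higher at Oxct1 (replicates 1 and 2) and Col25a1 (replicate 1), and at Sel1l it was the lower in all 3 lists. At Zfp277 it was lower than the start site in replicate 1 and higher in replicates 2 and 3. The distant regions were chosen for high values in these lists and the start sites were not, so this is a description. The start-site peaks of Oxct1, Col25a1 and Lekr1 held 4 to 8 fragments, close to the smallest number called in any list, 4.

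**Figure D2:**
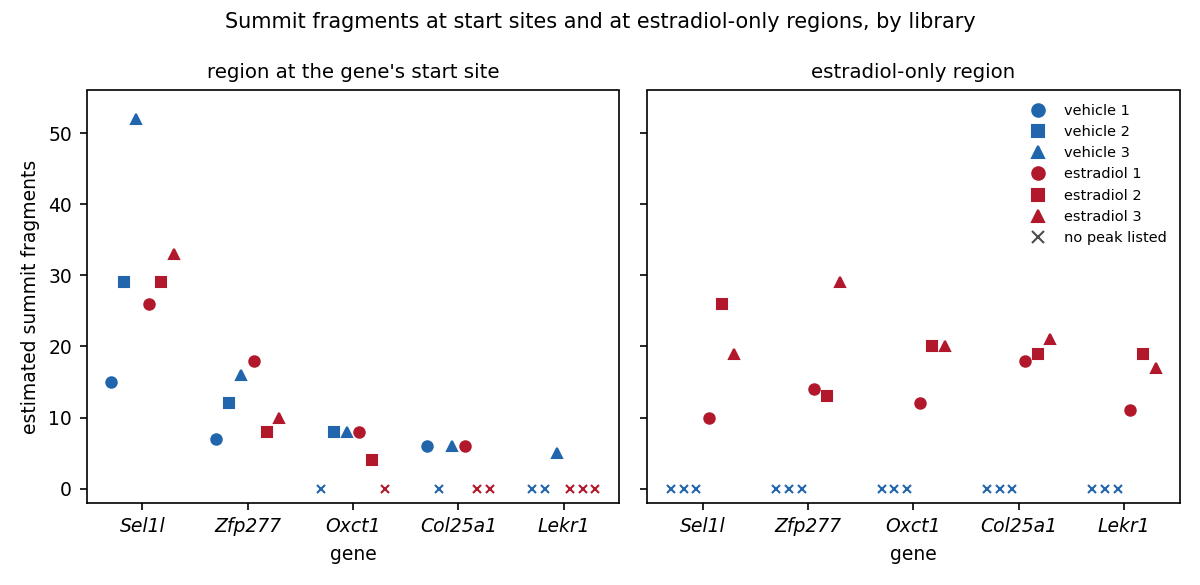
Estimated summit fragments (vertical axis) at the start site (left) and at the estradiol-only region (right) of the 5 genes with a peak at the start site, 1 symbol per library, crosses where no peak is listed. At Sel1l and Zfp277 the vehicle and estradiol symbols overlap on the left, with 15 to 52 and 26 to 33 fragments at Sel1l, and on the right only estradiol lists have values.

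The promoter sequences were searched on both strands for the palindromic estrogen response element (GGTCA, any 3 bases, TGACC), its core GGTCA and the AP-1 site TGANTCA. None of the 6 promoters held the full element, which is found in 0.0700% of the 32851 promoter windows of the table. The core, which is part of the full element, was found only at Oxct1, 145 bases before the start, although 40.5% of all windows hold it. The AP-1 site was found only at Sel1l, 205 bases before the start and outside the capitals (7.81% of all windows). After the sequences had been seen, the cyclic AMP response element TGACGTCA, the CCAAT box CCAAT and the GC box GGGCGG were added. The peak at Lekr1 covered 2 copies of the cyclic AMP response element, at positions -10 and 7, and 1.79% of all windows hold at least 1. The Sel1l promoter held 4 CCAAT boxes, 3 of them within the capitals, and that of Zfp277 held 2, 1 of them within the capitals (37.4% of all windows hold at least 1). The GC box was found 4 times at Zfp277, 2 times at Col25a1 (1 of them within the capitals) and once each at Lekr1 and Fam124a. It is held by 35.7% of all windows, which include genes of other classes. Among the 21263 promoters of protein-coding genes the shares were 46.2% for the GC box, 38.2% for the CCAAT box and 2.23% for the cyclic AMP response element. They were 0.0517% for the full estrogen response element, 39.4% for its core and 6.99% for the AP-1 site. The Col25a1 promoter held 2 copies of a 16-base stretch, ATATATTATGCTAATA, the first ending at position -146 and the other beginning at -75. The merged region there covered positions -146 to -72, from the last base of the first copy into the other.

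The rest of each locus was then compared between the groups, without the 7 regions that chose the genes. The vehicle libraries had 5, 6 and 14 other peaks at the 7 loci in replicates 1, 2 and 3, and the estradiol libraries 7, 11 and 10. The means were 8.33 ± 4.93 (SD, n = 3) and 9.33 ± 2.08 (SD, n = 3), a difference of 1.00 that is smaller than the spread within either group, and the ranges overlapped. Per 1000 peaks of a list they were 0.680 ± 0.242 (SD, n = 3) for vehicle and 0.660 ± 0.108 (SD, n = 3) for estradiol. No test was run because the same contrast chose the genes, and 3 libraries against 3 could not give an exact permutation p under 0.1. The difference was 3.50 within replicates 1 and 2 and -4.00 in replicate 3, with 1 library per group. Without vehicle replicate 1 it was -0.667, and leaving out vehicle replicate 2 gave -0.167. It was 3.83 without vehicle replicate 3, and 2.17, 0.167 and 0.667 without estradiol replicates 1, 2 and 3.

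**Figure D3:**
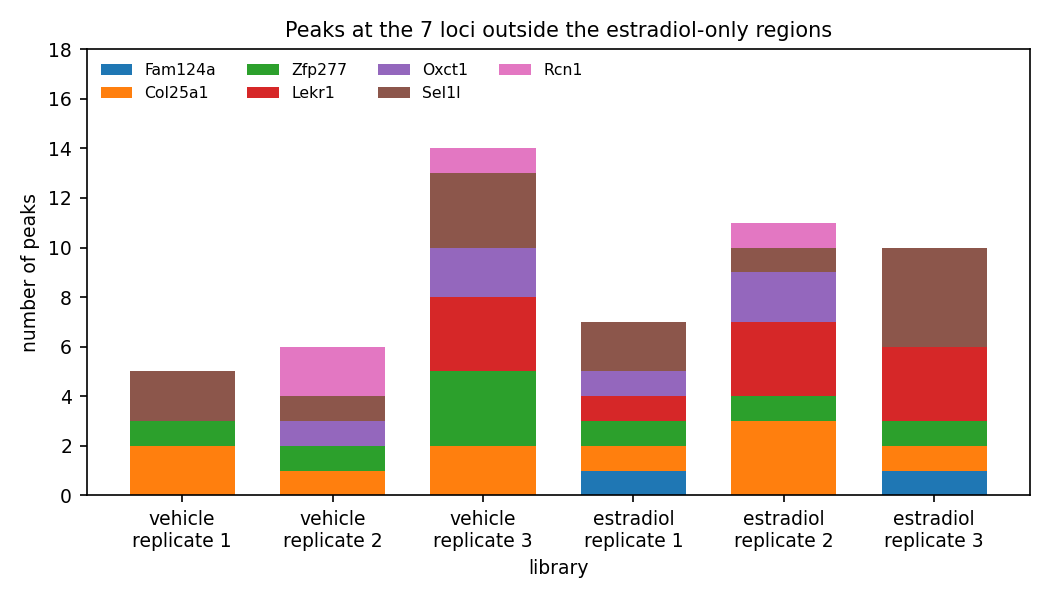
Number of peaks (vertical axis) at the 7 loci outside the estradiol-only regions in each library (horizontal axis), stacked by gene. The bars reach 5, 6 and 14 for vehicle and 7, 11 and 10 for estradiol.

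By region, 14 of the 32 other regions had peaks in estradiol lists only and 13 in vehicle lists only, with 5 in both. These are shares of 43.8%, 40.6% and 15.6%, beside 33.1%, 32.1% and 34.8% of all merged regions. Close regions were counted apart, as at Lekr1 and beside the main Rcn1 region, so these counts depend on the merging gap. Most of the 32 (22, or 68.8%) came from a single list, beside 58.9% of all merged regions. The start sites of Sel1l and Zfp277 were the 2 regions of all 6 lists, beside 7.27% of all merged regions. No other region had a peak in all 3 libraries of one group and none of the other (vehicle-only regions were 0.112% of all regions). When 2 of the 3 libraries of a group sufficed, 4 other regions were found with estradiol and 1 with vehicle. These are 12.5% and 3.125% of the 32, beside 2.97% and 2.49% of all merged regions, and the difference was not tested. The 4 lay at Fam124a, at Col25a1 and, as a pair, at Lekr1. The Col25a1 region of this kind lay inside the gene, 366 kb from the main one, with 8 and 10 fragments in estradiol replicates 2 and 3. The nearest other estradiol-only region was at least 1236 kb from each of the 7. Genes with a single such region were what the choice called for, so this distance is a description.

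**Figure D4:**
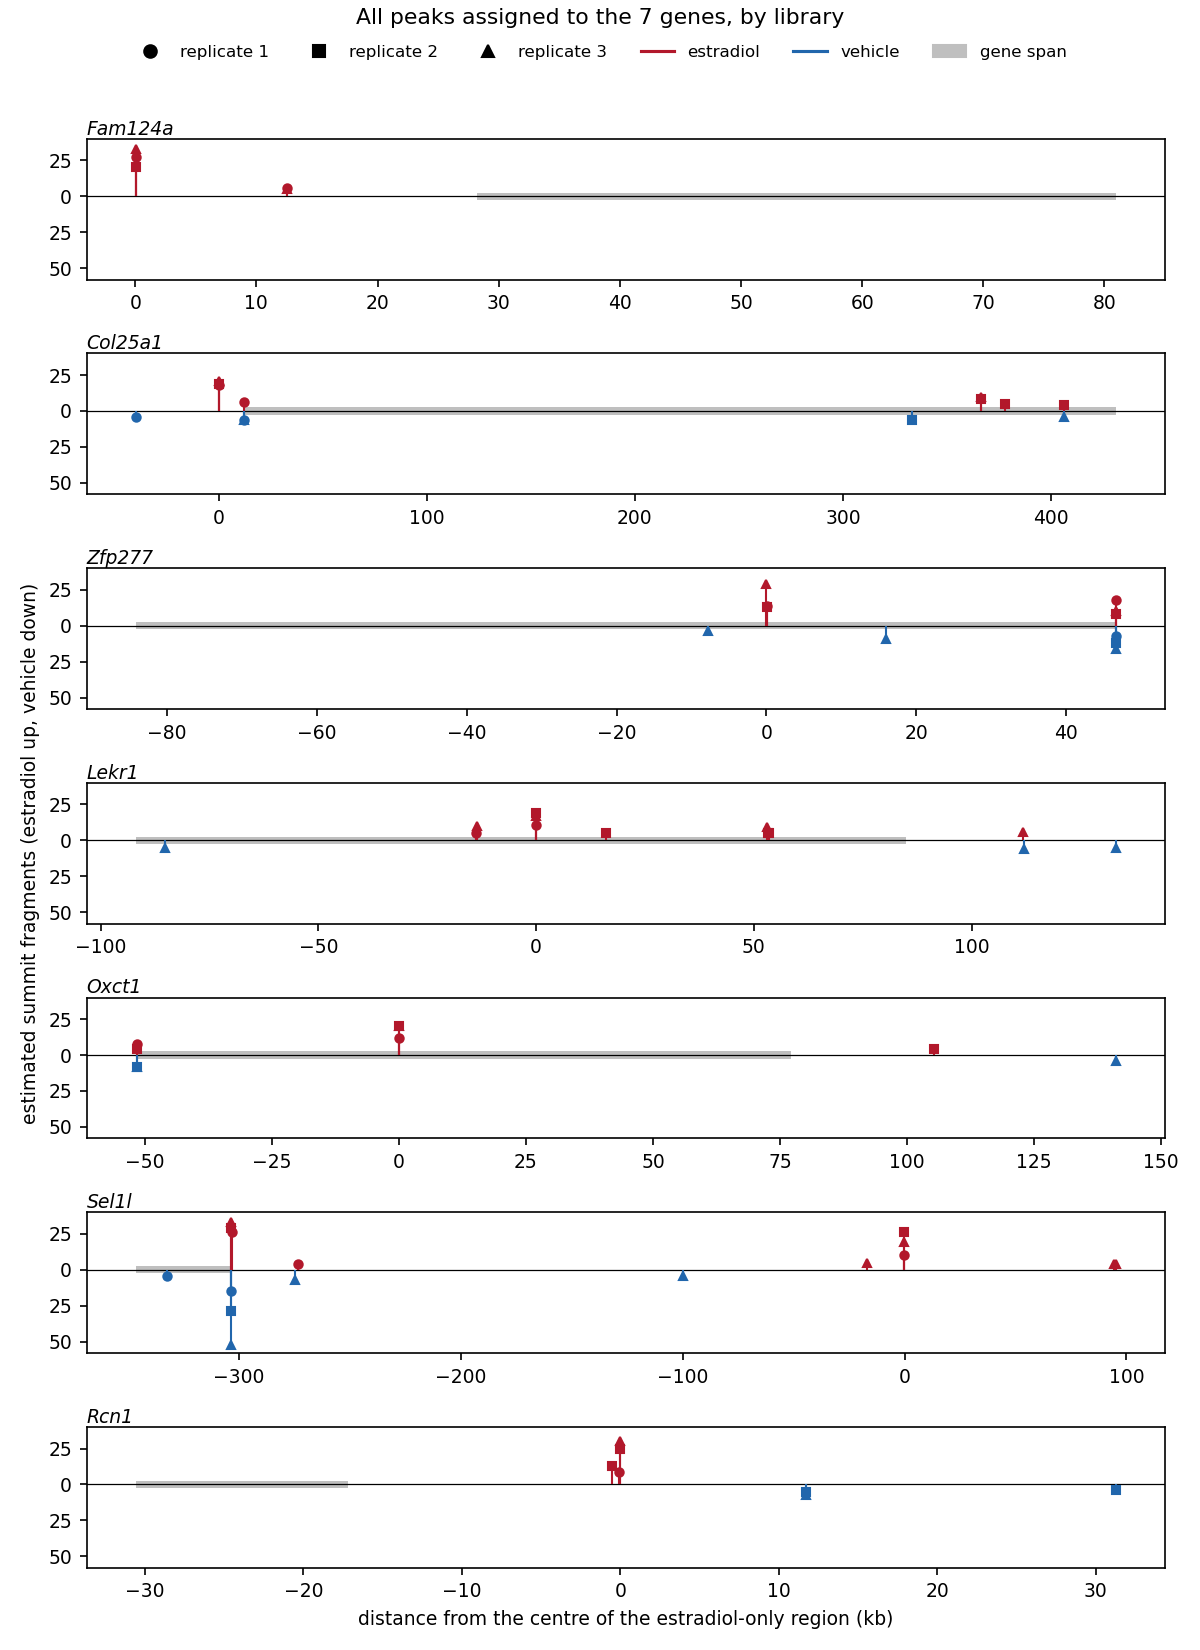
Every peak assigned to each gene, by distance of its summit from the centre of the estradiol-only region (horizontal axis, kb), with estimated summit fragments of estradiol libraries upward and of vehicle libraries downward. At distance 0 there are estradiol symbols only, and the tall symbols of both groups at -303 kb in the Sel1l panel are its start site, with up to 52 fragments.

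The 6 gene groups to which these genes belong were looked at for a shared pattern. They were ketone body metabolism (16 genes), transmembrane collagens (4), the CREC family of calcium-binding proteins (5), ER-associated degradation (24), the FAM124 family (2) and the Polycomb repressive complex 1 with Zfp277 (17). In each group the listed gene was the only one with an estradiol-only region, and in none was there a vehicle-only region. Of the 62 other genes, 0 had an estradiol-only region, beside 1.28% of all genes, and 0 had a vehicle-only region, beside 0.206%. At such background shares, counts of 0 among 62 genes show no difference from other genes. Among the neuron markers 0 of 12 and among the liver markers 1 of 12 (Apob) had an estradiol-only region. The Apob region lay 464850 bp from the gene, held 4 to 5 fragments and had the lowest rank of all estradiol-only regions, 290.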

How the data were processed

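CUT&RUN peak lists of 6 libraries (3 vehicle, 3 estradiol) were used, grouped by sample title. Build mm10 and the tools MACS2, Bowtie2, cutadapt, SAMtools, Picard and deepTools are given per the submitters' processing notes, with no versions. Each peak name in the deposited files contains q0.01, read here as the q-value threshold. The deposited lists give an integer score (10 times the −log10 q, rounded down), a fold enrichment at the summit (a ratio), the −log10 of the p-value, the −log10 of the q-value, and the summit. These are the authors' own values and describe peaks within a list.

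With Python 3.11.15, numpy 2.4.6, pandas 2.3.3 and scipy 1.17.1, overlapping or touching peaks of the 6 lists were merged, and regions were assigned to the nearest protein-coding gene span of RefSeq GRCm38.p6 within 500 kb, with ties kept (Zfp277 and Dock4). An estradiol-only region had a peak in 3 of 3 estradiol and 0 of 3 vehicle lists. Summit fragments were estimated as the whole number that gives the deposited fold (pseudocount 1) and Poisson p-value. For all but 3 peaks of the whole series the −log10 p then agreed within 0.001. The estimate rests on that assumed formula. Data simulated with the same formula were used to test the recovery of the number alone, so they cannot test the formula itself. The distance from a start site is taken from the centre of a region. Positions in promoters count from 1 at the start site of the promoter table, with -1 before it. At Col25a1 and Lekr1 the gene span begins before that start site, at 130180358 and 65659539. No read counts or control libraries were used here, and no sequence of the 7 regions.

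The genes and gene lists were chosen with earlier results of these data known. Chosen after seeing the data were the ranking measure, the edge comparison at Col25a1, the estimated limits for vehicle lists, the start-site window, the repeat search, 3 of the motifs and 2 alternatives. Named were the 7 genes, their neighbours, genes of the lists with a group-only region and the genes next to the ranking threshold. Genes named in the closing section for their start sites, and the pseudogene near the Sel1l region, fall outside this rule and were chosen after their values were seen. Alternatives were another merging gap, cover, thresholds, list length, assignment rules, left-out libraries and a replicate block.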

Additional observations from a re-analysis of the deposited data

How the results depend on the processing

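The number of the 7 genes with an estradiol-only region was 7 in the main setting, and 7 to 7 when each library was left out in turn, which the choice of the genes fixes and which is no sign of stability. It was 5 when a library's peaks had to cover 50% of the region (Rcn1 and Sel1l were lost), 6 with a distance limit of 100 kb (without Sel1l) and 4 when the nearest gene of any class was taken (Fam124a, Rcn1 and Sel1l then had a non-coding gene or pseudogene nearer). The difference in other peaks per library (1.00) was between -0.667 and 3.83 when single libraries were omitted, and -4.00 in replicate 3 only. The cause was not tested. It lay between 0.333 and 3.50 in the other settings, among them 2 chosen after seeing the data (each peak assigned by itself, and −log10 q of at least 5). Other estradiol-only regions at the 7 loci, a count added after seeing the data, numbered 0, as the choice of genes with a single such region called for. There were 2 without estradiol replicate 1 or without estradiol replicate 2, and 4 when 2 of 3 libraries sufficed. In replicate 3 only there were 8, where 12 were vehicle-only. With the replicate number as a block, the estradiol list and not the vehicle list of the same number held the region at 7 of 7 genes in each of the 3 pairs, again fixed by the choice of the genes, and the difference in other peaks was 1.00 on average (2, 5 and -4). Deviations from the group means correlated by -0.0293, 0.0213 and -0.0148 within pairs of the same number. Between libraries of unlike number the correlations were -0.0192 to 0.0404. With 3 libraries per group, such values cannot tell if the replicate numbers pair the libraries. List length rose with the replicate number in both groups (5421, 13717 and 20541 peaks for vehicle, 11082, 14123 and 17558 for estradiol). The other peaks at the loci held a median of 6 fragments in either group, against a smallest called number of 4. The part of depth in which lists hold them was not tested.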

Other observations

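Among the genes of ER-associated degradation, the group of Sel1l, peaks at start sites in all 6 lists were frequent: 10 of the 19 genes with a start site in the table had one, beside 12.2% of all genes. Besides Sel1l these were Derl2, Derl3, Os9, Herpud1, Vcp, Edem3, Hspa5, Hsp90b1 and Ufd1, among them the genes of derlins, of the ATPase p97 (Vcp) with its cofactor Ufd1, and of the ER chaperones BiP (Hspa5) and Grp94 (Hsp90b1). In the group of Oxct1 there were 2 of 11 (Bdh1 and Hmgcs1), in that of Rcn1 2 of 4 (Rcn2 and Sdf4), in that of Zfp277 2 of 14 (Zfp277 and Cbx8) and in those of Col25a1 and Fam124a 0 of 4 and 0 of 2. The genes named here were singled out after their values were seen, and the share was not tested.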
